A study of Mus musculus with 18 samples.

Results

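Among the livers of pups derived from stored germline stem (GS) cells, 3 carried Serpina6 transcripts at a level far above the rest. Serpina6 encodes corticosteroid-binding globulin, the plasma protein that carries glucocorticoids and progesterone. The 6 pup libraries numbered 4 to 6 were chosen by, and divided on, the share of all read counts assigned to Serpina6. The Serpina6-high livers, over 1%, were Space replicate 4 and Ground replicates 5 and 6. The Serpina6-low livers, under 0.2%, were Space replicates 5 and 6 and Ground replicate 4. These 6 libraries were part of 18 liver libraries, taken here as 1 per animal.

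GS cells are cultured spermatogonial stem cells. Per the labels they came from DBA/2 pups, and per the study's methods from the EGFP transgenic line C57BL6/Tg14(act-EGFP-OsbY01) crossed into DBA/2, so the pups could carry EGFP. They were kept frozen for 6 months, either aboard the International Space Station (Space) or on Earth (Ground), then thawed and transplanted into testes of infertile W mice, which were mated with C57BL/6 females. Space and Ground pups were therefore F1 animals of the B6D2F1 background and were 10 weeks old at sampling. BDF1 mice of the same cross were the wild-type controls, and their age is not stated. Each group held 6 libraries, and the labels give no sex. The study describes male and female pups, and fewer wild-type mice than were deposited. In the 6 libraries Xist, transcribed from the inactive X chromosome, had 12218 to 16619 counts and the summed Y-linked genes 0 to 10, a pattern shared by BDF1 replicates 4 to 6 and by none of the replicates 1 to 3. The high and low livers are therefore set beside BDF1 replicates 4 to 6, whereas the tests between labelled groups at the end use all 6 libraries of each group. Whether an animal had been mated, was pregnant or nursing, or had been fasted is in neither the labels nor the methods.

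In rodents the liver of the mother is remodelled during gestation. Pituitary prolactin, placental lactogens and growth hormone act through the prolactin and growth hormone receptors, which signal through JAK2 and STAT5. The liver grows, hepatocytes replicate their DNA, plasma corticosteroid-binding globulin rises, and in the mouse a soluble form of the LIF receptor enters the blood. Cish and Socs2 are induced by STAT5 and damp the signal, whereas Bcl6 is a repressor whose transcription STAT5 lowers. These points are background to the gene lists that follow and were not measured in these animals.

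The Serpina6 share that chose the libraries was 3.43% in Space replicate 4 (95% Wilson interval 3.42 to 3.44%), 3.41% in Ground replicate 5 (3.40 to 3.41%) and 2.18% in Ground replicate 6 (2.17 to 2.18%). The lowest member of the high class thus stood at 2.18%. The highest of the low class was Ground replicate 4 at 0.0811% (0.0798 to 0.0824%), with Space replicate 5 at 0.0806% and Space replicate 6 at 0.0664%. No library lay between the thresholds. The intervals cover counting error only. BDF1 replicates 4 to 6 held 0.0882%, 0.0930% and 0.107%, and the 9 libraries numbered 1 to 3 held 0.0133 to 0.0247%. By the median of the 3 high livers Serpina6 was the second most abundant gene after Alb, but in Ground replicate 6 it was below Trf, the transferrin gene, which took at least 2.34% in each high liver. In the low livers it was close to the 3 BDF1 libraries.

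**Figure D1:**
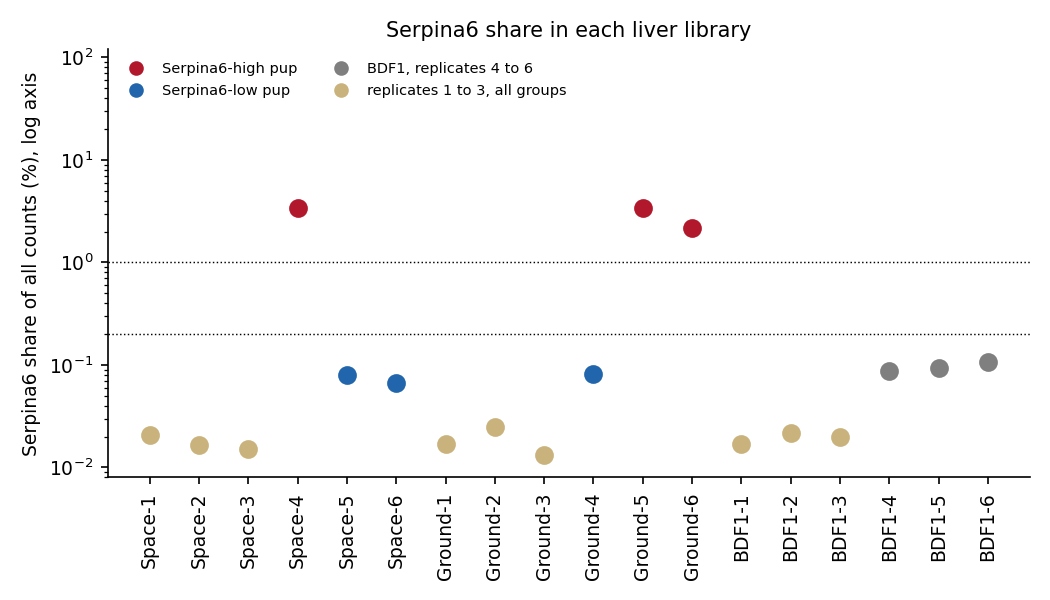
Serpina6 counts as a percentage of all counts in each of the 18 liver libraries, on a log axis, with 1 point per library and dotted lines at the thresholds of 0.2% and 1%. Space replicate 4, Ground replicate 5 and Ground replicate 6 lie between 2.18% and 3.43%, and the other 15 libraries lie at or below 0.107%.

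The high class held 1 Space and 2 Ground animals. The mean share was 0.605 ± 1.38% (SD, n = 6) in Space, 0.953 ± 1.48% (SD, n = 6) in Ground and 0.0578 ± 0.0423% (SD, n = 6) in BDF1. The difference of Space from Ground was −0.349 percentage points, smaller than the SD of either pup group, and −0.697 points within replicates 4 to 6. The sign rests on Ground replicate 5, without which the difference was 0.142 points. These shares chose the libraries, so they carry no test.

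Total counts were 16909475 to 20562351 in the high and 17671932 to 19327585 in the low libraries. Alb, the albumin gene, took 18.9 to 24.1% of counts in the high, 17.6 to 19.4% in the low and 6.72 to 8.03% in BDF1 replicates 4 to 6. The mitochondrial share was 3.43 to 6.02% in the high and 3.84 to 5.29% in the low libraries. One low library stood apart. In Space replicate 6 the summed markers of haploid germ cells reached 56.7 CPM (counts scaled to library size with TMM factors, in the usual CPM unit), against at most 0.235 CPM in the other 5, and 17766 genes had counts, against 15876 to 16296.

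Because the classes were made from a measured gene, the comparison of high with low livers is a description and carries no test. A gene was counted as higher where all 3 high libraries lay above all 3 low ones and the medians, each plus 0.5 CPM, differed at least 2-fold, among genes that averaged 1 CPM or more over the 6 libraries. Of 11866 such genes, 308 (2.60%) were counted as higher and 174 (1.47%) as lower in the Serpina6-high livers. Without Space replicate 6 the counts were 323 and 172. Both percentages are the background for the counts of each gene list below. At any size, all 3 high libraries lay above all 3 low ones in 1628 genes (13.7%) and below them in 1404 (11.8%). At 4-fold or more the numbers were 85 and 29, and at 8-fold or more 27 and 5. The split depended on scaling. With total counts in place of TMM, 170 of 11555 genes were counted as higher (1.47%) and 388 as lower (3.36%), so that 30.5% of the counted genes were higher against 63.9%, and the median log2 ratio of all genes moved from 0.01 to −0.28. The TMM factors were 0.705 to 0.762 in the high and 0.901 to 0.960 in the low libraries. In bulk tissue, fewer cells of a type and less RNA per cell cannot be told apart.

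Of the hepatocyte markers 1 of 10, Tat, was counted as higher, beside 2.60% of all genes. Leaving out Space replicate 6 gave 2 higher, leaving out Ground replicate 6 gave 1 higher and 1 lower, and total-count scaling gave 1 higher and 2 lower. No marker of Kupffer cells (8 measured), endothelium (6), stellate cells (7), cholangiocytes (2), lymphocytes (1), neutrophils (1) or adipocytes (1) was counted, which at these numbers is near the shares over all genes. Without Ground replicate 4, 1 cholangiocyte marker was counted as lower, and without Ground replicate 6, 1 stellate cell marker.

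The counted genes were then compared with the other libraries. Of the 308 higher genes, 201 (65.3%) were above all 15 other libraries in each high liver, and 270 were above BDF1 replicates 4 to 6. In 185 of the 308 the low libraries overlapped those BDF1 libraries. Of the 174 lower genes, 63 (36.2%) were below all 15 other libraries and 128 below BDF1 replicates 4 to 6. The low livers overlapped BDF1 in 90 of the 174 and lay above BDF1 in 59. Within the high class, Ground replicate 6 lay nearest to the low libraries in 213 of the 308 higher genes (69.2%). Within the low class, Ground replicate 4 lay nearest to the high libraries in 91 of the 174 lower genes (52.3%).

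**Figure D2:**
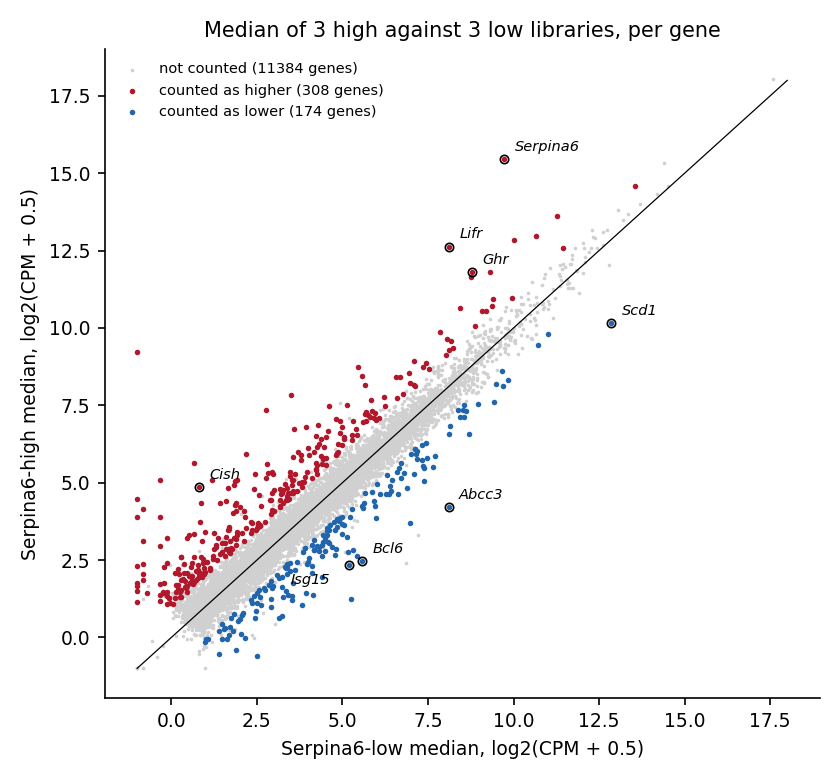
Median of the 3 Serpina6-low libraries (horizontal) against the median of the 3 Serpina6-high libraries (vertical), log2(CPM + 0.5), with 1 point per gene for 11866 genes and the line of equality. The 308 genes counted as higher lie above the line and the 174 counted as lower lie below it.

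Of the other genes that marked the division, Adcy1, a calcium-stimulated adenylyl cyclase, read 41.6, 32.4 and 19.9 CPM in Space replicate 4, Ground replicate 5 and Ground replicate 6, and 3.12, 3.39 and 1.94 CPM in Space replicate 5, Space replicate 6 and Ground replicate 4. The libraries are given in this order throughout. Pnpla5, a patatin-like lipase, read 27.8, 19.7 and 6.27 CPM in the high and 3.24, 2.70 and 5.19 CPM in the low livers. Both genes kept the classes apart, although Pnpla5 in Ground replicate 6 was only just above Ground replicate 4, and both were at most 0.268 CPM in BDF1 replicates 4 to 6. Mki67, which marks cycling cells, did not separate the classes. It read 29.5, 11.7 and 9.17 CPM in the high and 3.06, 5.80 and 16.6 CPM in the low livers, with Ground replicate 4 above 2 of the high libraries. It was at most 0.451 CPM in BDF1 replicates 4 to 6.

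Lifr, the receptor of leukaemia inhibitory factor, read 6340, 7030 and 3250 CPM in the high livers and 275, 268 and 333 CPM in the low livers, a 23.0-fold ratio of medians. BDF1 replicates 4 to 6 read 337, 567 and 603 CPM, so the high livers lay above the controls. The low livers lay below them, but Ground replicate 4 was almost level with BDF1 replicate 4. Peg3, a paternally expressed imprinted gene, read 211, 256 and 230 CPM against 10.0, 10.8 and 13.3 CPM. Dnajc12, a co-chaperone of aromatic amino acid hydroxylases, read 161, 169 and 29.6 CPM against 7.20, 5.80 and 6.31 CPM. Peg3 was even across the high livers, whereas Dnajc12 in Ground replicate 6 was far below the other two.

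Further genes with large ratios stayed near or under 1 CPM in the low livers. Serpina16, a serpin next to Serpina6 on chromosome 12 (103668808-103676139, minus strand, with Serpina6 at 103646630-103657212 on the same strand), read 21.5, 29.4 and 15.5 CPM in the high livers and at most 0.0589 CPM in the low. It had no counts in the other 12 libraries. Sult4a1, a sulfotransferase family member, read 45.6, 33.7 and 8.48 CPM in the high livers and at most 0.943 CPM in the low. It is the neighbour of Pnpla5 on chromosome 15 (Sult4a1 at 84076097-84105754 and Pnpla5 at 84112356-84123175, both on the minus strand). Cacna1h, a T-type calcium channel, Crybb3, a beta-crystallin, Abca17, an ABC transporter, and Snai3, a Snail family repressor, read 5.10 to 60.6 CPM in the high livers and at most 1.21 CPM in the low. In the other 12 libraries Crybb3 reached 4.96 CPM, and the other 3 genes were at most 0.451 CPM.

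**Figure D3:**
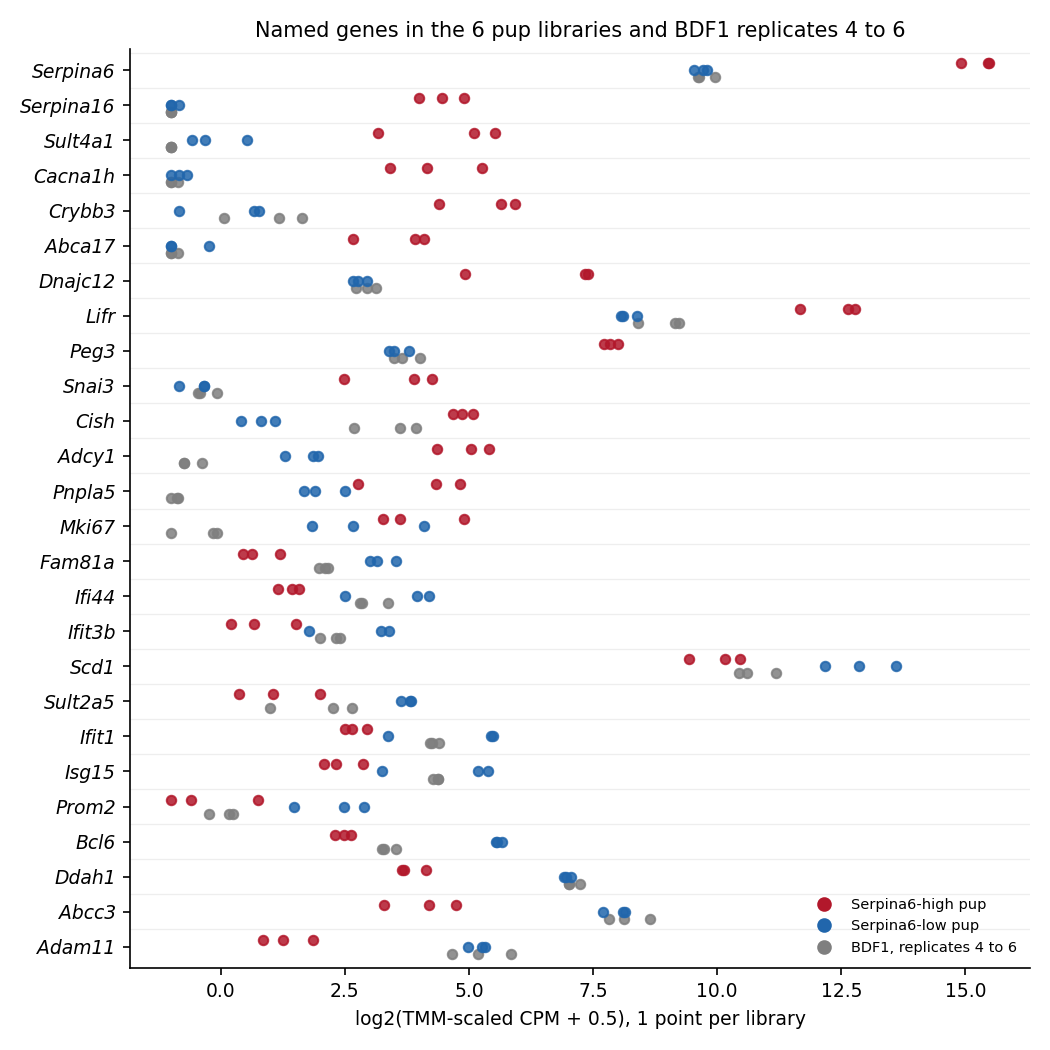
Level of 26 named genes as log2(TMM-scaled CPM + 0.5), with 1 point per library: the 3 Serpina6-high livers in red, the 3 Serpina6-low livers in blue and BDF1 replicates 4 to 6 in grey. Red and blue points are apart for each gene except Mki67, and for Bcl6 the grey points lie between them.

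Of 13 measured genes of growth hormone and prolactin signalling, 6 were counted as higher in the high livers and 1 as lower, beside 2.60% and 1.47% of all genes. The other 6 were not counted, and one of them, Stat5b, had all high libraries below all low ones. The median log2 ratio was 0.80 against 0.01 over all genes. These counts were the same under total-count scaling, where the median was 0.54 against −0.28. Both receptors took part. Prlr, the prolactin receptor, read 3170, 4010 and 2800 CPM in the high and 433, 408 and 478 CPM in the low livers, with 352 to 369 CPM in BDF1 replicates 4 to 6. Ghr, the growth hormone receptor, read 3570, 4080 and 2320 CPM against 440, 433 and 450 CPM, with 423 to 456 CPM in the controls. The low livers were thus at the control level for Ghr, and the high livers were above all other libraries for both receptors. Ghr, Lifr and Prlr lie on chromosome 15, at 3317760-3583492, 7090614-7197489 and 10177238-10349180.

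The feedback inhibitors Cish and Socs2 were also counted as higher. Cish read 33.3, 25.2 and 28.6 CPM in the high livers and 1.62, 1.26 and 0.825 CPM in the low livers, a 16.5-fold ratio. BDF1 replicates 4 to 6 read 5.89, 11.7 and 14.8 CPM and lay between the classes. Socs2 read 68.6, 59.7 and 59.2 CPM against 4.62, 3.68 and 4.07 CPM, with 7.33 to 16.6 CPM in the controls, again in between. Bcl6 ran the other way, at 5.65, 5.05 and 4.41 CPM in the high livers and 45.9, 46.9 and 50.3 CPM in the low livers, with 8.94 to 11 CPM in the controls. For these 3 genes the low livers departed from the controls on the side away from the high livers. The transcription factors Cux2 (111, 94.8 and 111 CPM against 16.0, 7.98 and 14.7 CPM) and Onecut1 (39.1, 66.5 and 36.4 CPM against 6.54, 7.98 and 6.13 CPM) were also higher.

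The kinase and the transcription factors that carry the signal were not counted. Jak2 read 11.5 to 14.8 CPM in the high and 14.0 to 18.2 CPM in the low livers, and Stat5a read 15.3 to 17.3 CPM against 13.0 to 16.4 CPM. Igf1, the growth factor made under growth hormone, read 697 to 841 CPM against 504 to 711 CPM, and the classes overlapped. Igf2, a fetal growth factor that is imprinted, was counted as higher at 5.80, 9.50 and 20.8 CPM against 0.840, 1.15 and 0.943 CPM. Afp, the fetal albumin-like protein, was under 1 CPM in all 6 livers.

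The promoters of Cish and Bcl6 are shown because these genes differed in opposite directions and both hold TTCNNNGAA, the spaced palindrome that STAT factors can bind. Sequences are from RefSeq on GRCm38.p6, 250 bases before to 30 after a start site, with each match in capitals. Cish lies at chr9:107296409-107296688 on the plus strand, and its matches begin at bases 1 and 12 after the start. The second listed start of Bcl6 is at chr16:23981254-23981533 on the minus strand, with matches at −168, −122 and −88. It is printed because it holds more matches than the first listed start (chr16:23988823-23989102, minus strand), which has 1, at −118.
Cish: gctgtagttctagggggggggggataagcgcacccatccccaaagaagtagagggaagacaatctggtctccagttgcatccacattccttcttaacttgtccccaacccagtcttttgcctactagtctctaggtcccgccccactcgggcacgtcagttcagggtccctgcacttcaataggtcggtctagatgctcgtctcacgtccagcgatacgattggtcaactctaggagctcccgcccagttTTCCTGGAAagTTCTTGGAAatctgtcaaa
Bcl6: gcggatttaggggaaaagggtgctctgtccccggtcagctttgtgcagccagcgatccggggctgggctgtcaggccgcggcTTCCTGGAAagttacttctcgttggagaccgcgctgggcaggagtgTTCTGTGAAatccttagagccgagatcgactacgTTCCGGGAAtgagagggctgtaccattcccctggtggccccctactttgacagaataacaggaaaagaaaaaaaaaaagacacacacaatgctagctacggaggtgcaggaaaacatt
Over windows of 300 bases, 250 before to 50 after the start, the motif was in 7 of 21 promoters (33.3%) of the 12 list genes that matched the table. It was in 17 of 286 (5.94%) promoters of higher genes, in 17 of 184 (9.24%) of lower genes and in 6.95% of 12049 promoters of all genes measured. The promoters of Adcy1 and Pnpla5 held no match. A match is a run of letters and not a measured binding site.

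Of the 11 measured genes with a known link to gestation in liver, Serpina6 left out, 3 were counted as higher (2.60% of all genes) and none as lower, with 1 lower without Ground replicate 6. The higher genes were Lifr, Prlr and Cp. Cp, ceruloplasmin, the copper carrier of plasma, read 7130, 8650 and 8100 CPM in the high and 1510, 1820 and 1630 CPM in the low livers. The median log2 ratio of the list was 0.61 (0.01 over all genes), and 0.17 under total-count scaling (−0.28 over all genes). Pzp, the pregnancy zone protein gene, read 6960, 11400 and 9260 CPM against 5180, 6850 and 7180 CPM and overlapped. Agt, the angiotensin precursor, read 763 to 1140 CPM against 926 to 1140 CPM and overlapped too. Markers of trophoblast, the placental cells of the embryo, were at 0 for 6 of 8 genes in all 6 livers, and their sum was at most 0.115 CPM. Of the steroid receptors 0 of 6 were counted. The oestrogen receptor Esr1 read 51.4, 53.6 and 23.7 CPM against 28.0, 30.8 and 32.2 CPM, and the progesterone receptor Pgr was at most 0.328 CPM.

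Of 25 measured cell division genes, 0 were counted in either direction, which is near the shares over all genes (2.60% and 1.47%). The median log2 ratio was 0.03. Their sum was 153, 61.5 and 51.6 CPM in the high livers and 21.4, 55.4 and 112 CPM in the low livers, so Ground replicate 4 exceeded 2 of the high livers. All 6 were above BDF1 replicates 4 to 6, at 8.86 to 9.21 CPM. Without Ground replicate 4, 2 genes were counted as higher and the median was 0.56, and without Ground replicate 6 these were 1 and 0.64. Genes of DNA replication gave 3 higher of 27, namely the transcription factor E2f8, the helicase subunit Mcm2 and the flap endonuclease Fen1. The count was 2 without Space replicate 6, 4 without Ground replicate 4 and 1 under total-count scaling. E2f8 read 15.2, 16.4 and 16.5 CPM in the high and 3.18, 3.10 and 4.36 CPM in the low livers. Of 14 G1 cyclins, inhibitors of their kinases and related genes, 1 was counted as higher, Myc, and 1 as lower, Ccnd1, beside 2.60% and 1.47% of all genes. Myc, a growth-promoting transcription factor, read 8.16, 4.33 and 6.21 CPM against 3.42, 2.24 and 2.71 CPM and was not counted under total-count scaling. Ccnd1, cyclin D1 of the G1 phase, read 15.4, 20.6 and 21.9 CPM against 56.5, 60.2 and 63.2 CPM, and the controls, at 40.9 to 65.9 CPM, were with the low livers. Of 12 hepatocyte mitogens and their receptors, none was counted, near the shares over all genes, and 1 was counted as lower without Ground replicate 4. At any size 1 lay higher and 3 lower, beside 13.7% and 11.8% of all genes.

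Glucocorticoid-responsive genes, relevant because the product of Serpina6 binds these hormones, gave 6 higher and 0 lower of 16, beside 2.60% and 1.47% of all genes, with 5 higher under total-count scaling and 4 without Ground replicate 4. Fkbp5, a co-chaperone of the glucocorticoid receptor, read 210, 239 and 232 CPM in the high and 88.1, 133 and 108 CPM in the low livers, all above the 26.8 to 33.5 CPM of BDF1 replicates 4 to 6. Tat, tyrosine aminotransferase, read 2080, 1950 and 1600 CPM against 713, 636 and 671 CPM, but here the controls, at 1310 to 2350 CPM, overlapped the high livers. Per1, Sgk1, G6pc and Errfi1 completed the group, and Per1 in Space replicate 6 (19.6 CPM) was close to the high livers (23.4 to 63.5 CPM). The receptor itself, Nr3c1, was not counted. Of the fasting genes 2 of 17 were counted as higher, G6pc and Acot1, and of the clock genes 2 of 18, Per1 and Bhlhe41, where 2.60% of all genes were. Each count was 1 without Space replicate 6 and 1 under total-count scaling, where 1 clock gene was also counted as lower. The clock count was 1 without Ground replicate 4 too.

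Among plasma proteins made by the liver, 6 of 20 acute phase genes were counted as higher (2.60% of all genes) and 1, Orm3, as lower (1.47%). The counts were 7 and 0 without Space replicate 6, and 6 and 2 without Ground replicate 6. At any size, 13 had all high libraries above all low ones, beside 13.7% of all genes. Hamp, the iron hormone hepcidin, had a log2 ratio of −3.91 with overlapping classes, and Lcn2 and Steap4 had −0.45 and −0.39, also with overlap. Itih4, an inter-alpha-trypsin inhibitor chain, read 10500, 17000 and 12600 CPM in the high and 2080, 2600 and 2460 CPM in the low livers, with 1850 to 2300 CPM in the controls. Saa1, serum amyloid A, read 70.2, 63.7 and 34.5 CPM against 12.4, 20.4 and 8.55 CPM. Of 14 other genes in the list of the Serpina cluster, which leaves out Serpina16 described above, 2 were counted as higher (2.60% of all genes) and 9 were above at any size (13.7% of all genes). Serpina1e, an alpha-1-antitrypsin copy, read 5560, 7310 and 8930 CPM against 771, 1070 and 1040 CPM. Serpina11 read 338, 386 and 321 CPM against 113, 103 and 81.2 CPM. Both lie on chromosome 12 with Serpina6, at 103946931-103958975 and 103980243-103989957. Chaperones of the endoplasmic reticulum and genes of the amino acid response, 1 list, gave 3 higher of 15, Sdf2l1, Pdia6 and Calr, beside 2.60% of all genes. The count was 7 higher without Space replicate 6, 6 higher without Ground replicate 6, 2 higher and 1 lower without Ground replicate 4, and 1 higher and 1 lower under total-count scaling. Reads of near-identical copies (Serpina1a to Serpina1e, Saa, Orm, Cyp3a, Acot and Sult2a genes) may have been split between them, so these values are uncertain.

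Of 16 fatty acid synthesis genes 2, Scd1 and Elovl6, were counted as lower (1.47% of all genes) and none as higher. Leaving out Space replicate 6 gave 2 lower and 1 higher, leaving out Ground replicate 4 gave 3 lower, and leaving out Ground replicate 6 gave 3 lower and 1 higher. Of the 16, 9 had all high libraries below all low ones at any size (11.8% of all genes), and 7 were counted as lower under total-count scaling (3.36% of all genes). Pnpla3 and Acacb had log2 ratios above 0, at 1.93 and 0.46, with overlapping classes. Scd1, stearoyl-CoA desaturase, read 1410, 693 and 1140 CPM in the high and 4600, 7430 and 12500 CPM in the low livers. BDF1 replicates 4 to 6 read 1380, 1550 and 2320 CPM, close to the high livers, so it was the low livers that stood above the controls. Fasn, fatty acid synthase, read 474, 265 and 401 CPM against 880, 734 and 590 CPM, and the controls at 543 to 839 CPM were here with the low livers. Of 18 cholesterol genes 1 was counted as lower, Dhcr7 of the last step of synthesis, near the 1.47% of all genes. None was counted without Space replicate 6 or without Ground replicate 6, 3 without Ground replicate 4 and 4 under total-count scaling.

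Of 15 genes of bile acid synthesis and transport, 4 were counted as lower, all of them transporters, and 1 as higher, beside 1.47% and 2.60% of all genes. The other 10 were not counted. Abcc3, the basolateral export pump, read 26.2, 9.31 and 17.9 CPM in the high and 208, 274 and 281 CPM in the low livers, a 15.0-fold difference. The controls read 226 to 398 CPM, and the high livers were below all 15 other libraries. The uptake carriers Slco1a4 (24.3, 7.54 and 33.0 CPM against 90.3, 120 and 99.0 CPM), Slc10a1 (322, 230 and 624 CPM against 936, 919 and 757 CPM) and Slco1b2 were the others. Cyp7a1, the rate-limiting enzyme of bile acid synthesis, was higher at 65.3, 102 and 170 CPM against 23.3, 22.4 and 53.5 CPM. It was not counted under total-count scaling, and the controls (142 to 242 CPM) overlapped the upper end of the high livers.

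Among the genes with the largest ratios in the lower direction, Adam11, an ADAM family protein, read 1.88, 1.31 and 3.10 CPM in the high and 39.4, 30.9 and 37.8 CPM in the low livers. Ddah1, which breaks down asymmetric dimethylarginine, read 17, 12.4 and 12 CPM against 120, 133 and 124 CPM. For both genes the low livers overlapped BDF1 replicates 4 to 6, which read 24.7 to 57.1 CPM for Adam11 and 128 to 151 CPM for Ddah1. Prom2, a prominin, Sult2a5, a hydroxysteroid sulfotransferase, and Fam81a read 2.28 to 13.8 CPM in the low livers and at most 3.52 CPM in the high. For these genes BDF1 replicates 4 to 6 lay below the low livers, at 0.351 to 0.693, 1.5 to 5.72 and 3.46 to 3.96 CPM in turn.

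Interferon-stimulated genes made up a further part of the lower genes. The list was drawn up after Isg15, Ifit1, Ifit3b and Ifi44 had been seen among the largest ratios, so its count is not independent of them. Of 27 measured, 14 were counted as lower (1.47% of all genes) and 0 as higher, and the median log2 ratio was −1.47. The count was 13 without Space replicate 6, 18 without Ground replicate 4 and 21 under total-count scaling. Isg15, a ubiquitin-like protein, read 6.82, 4.52 and 3.72 CPM in the high livers and 41.1, 35.7 and 9.02 CPM in the low livers. Ifit1, which binds foreign RNA, read 5.73, 5.18 and 7.17 CPM against 42.8, 44.4 and 9.84 CPM. In both genes Ground replicate 4 was close to the high livers, and BDF1 replicates 4 to 6, at 18.8 to 20.3 CPM and 18.1 to 20.5 CPM, lay between it and the 2 low Space livers. The summed list was 512, 417 and 436 CPM in the high livers, 1030 and 1040 CPM in Space replicates 5 and 6, 561 CPM in Ground replicate 4 and 676 to 721 CPM in the controls. The low class was therefore not uniform for these genes.

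The promoters of Isg15 (chr4:156200789-156201068, minus strand) and Ifit1 (chr19:34640639-34640918, plus strand) are shown because both hold the core of the interferon-stimulated response element, read here as GAAA, any 2 bases and GAAA again. It is in capitals as read on the printed strand, forward in Isg15, where 3 overlapping matches form 1 run, and as its reverse complement in Ifit1.
Isg15: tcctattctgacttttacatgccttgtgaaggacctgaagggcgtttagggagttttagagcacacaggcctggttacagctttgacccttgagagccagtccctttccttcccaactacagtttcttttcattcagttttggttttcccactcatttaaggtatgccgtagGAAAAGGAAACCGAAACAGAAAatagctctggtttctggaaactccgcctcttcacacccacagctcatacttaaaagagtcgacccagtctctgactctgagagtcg
Ifit1: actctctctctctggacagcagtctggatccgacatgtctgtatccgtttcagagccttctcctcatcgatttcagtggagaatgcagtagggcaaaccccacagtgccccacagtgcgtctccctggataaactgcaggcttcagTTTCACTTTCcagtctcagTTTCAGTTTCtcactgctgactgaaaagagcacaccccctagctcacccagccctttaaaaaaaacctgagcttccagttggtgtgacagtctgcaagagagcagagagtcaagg
The matches begin at −78, −72 and −66 in Isg15 and at −104 and −85 in Ifit1. On both strands, the motif was in 13 of 24 promoters (54.2%) of the 20 interferon-stimulated genes that matched the table. It was in 16 of 184 (8.70%) promoters of lower genes, in 8 of 286 (2.80%) of higher genes and in 3.10% of promoters of all genes measured. The lower genes include the 14 counted genes of the interferon list, so these shares are not independent. The promoter of Irf7, also counted as lower, held no match in the window used for the printed sequences.

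**Figure D4:**
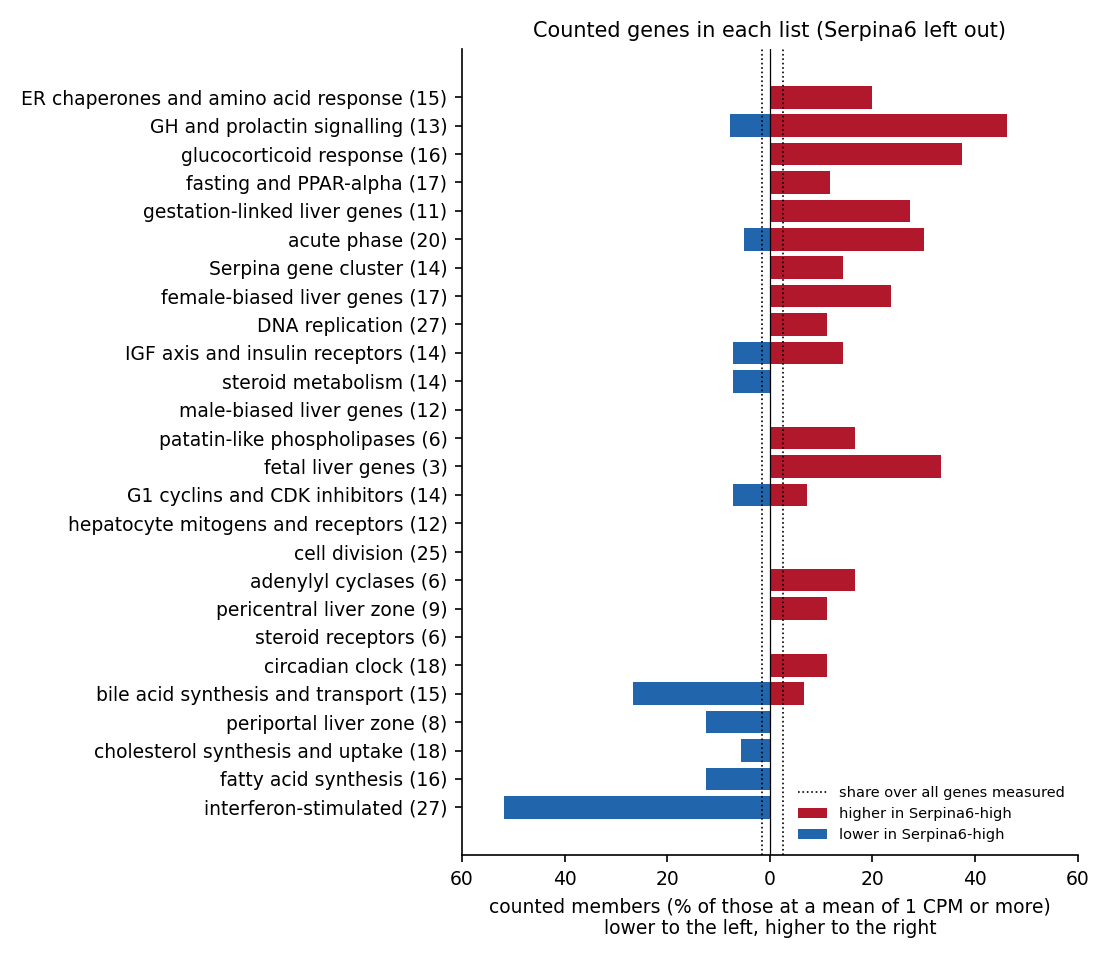
Members of each gene list, cell type markers left out, counted as higher (red, right) or lower (blue, left) in the Serpina6-high livers, as a percentage of the measured members given in brackets, with Serpina6 left out and lists ordered by median ratio. Dotted lines mark the shares over all genes measured, 2.60% higher and 1.47% lower. Of the lists plotted, growth hormone and prolactin signalling (6 of 13) extends furthest to the right and the interferon-stimulated list (14 of 27) furthest to the left.

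**Figure D5:**
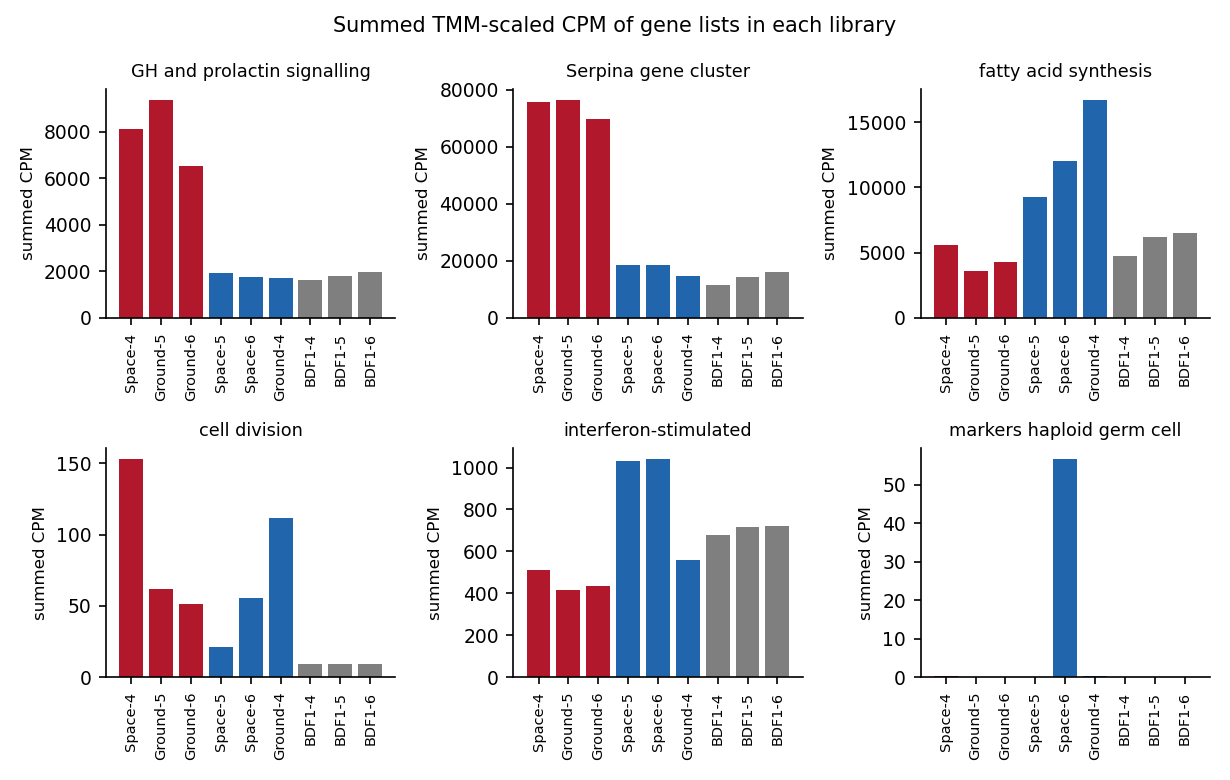
Summed TMM-scaled CPM of 6 gene lists in each library, with bars from 0: Serpina6-high livers in red, Serpina6-low livers in blue and BDF1 replicates 4 to 6 in grey. The classes are apart in the upper panels (the Serpina list includes Serpina6) and overlap for cell division, and Space replicate 6 alone holds haploid germ cell transcripts at 56.7 CPM.

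Of the liver genes biased to females, 4 of 17 were counted as higher, Cux2, A1bg, Acot3 and Cyp3a16, beside 2.60% of all genes, and the count was 6 without Ground replicate 6. Of those biased to males 0 of 12 were counted, which is near the shares over all genes. Without Ground replicate 4 there were 1 higher and 1 lower, and without Ground replicate 6 there was 1 higher. Acot3, an acyl-CoA thioesterase, read 283, 290 and 277 CPM in the high and 58.4, 24.4 and 50.0 CPM in the low livers. A1bg read 4230, 3610 and 2010 CPM against 639, 397 and 1620 CPM, with Ground replicate 4 close to the high livers. Liver zones gave 1 of 9 pericentral genes higher (Slc1a2) and 1 of 8 periportal genes lower (Hal), single genes beside a background of 2.60% and 1.47%. The pericentral count was 0 without Ground replicate 6 and under total-count scaling. The periportal count was 2 without Ground replicate 4 or Ground replicate 6 and 4 under total-count scaling. Of the erythroid markers 1 of 5, Alas2 of haem synthesis, was counted as higher, beside 2.60% of all genes. Without Ground replicate 6 it was 4 of 5, in a setting where 420 genes in all were counted as higher. The summed list was 723, 586 and 102 CPM in the high against 234, 201 and 326 CPM in the low livers, with Ground replicate 6 the lowest of all 6. Of the exocrine pancreas markers 1 of 7 reached 1 CPM. Cela3b, an elastase, read 2.59, 3.21 and 2.90 CPM in the high livers and at most 0.0574 CPM in the low, and 3 of the 7 were at 0 in all 6. The part of other cells in these results was not tested.

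The labelled groups were then compared. With edgeR's quasi-likelihood test over all 18 libraries, 0 of 12847 genes (0.0%) differed between Space and Ground at a Benjamini-Hochberg adjusted p under 0.05, with 1186 genes at an unadjusted p under 0.05 and 30 called by DESeq2. Leaving out Ground replicate 2 gave 6 and leaving out Space replicate 4 gave 2. Without the Serpina6-high libraries the count was again 0 of 13026 (0.0%), with 1202 genes at an unadjusted p under 0.05. Space differed from BDF1 in 488 genes (3.80%) and Ground from BDF1 in 489 (3.81%), and without the Serpina6-high libraries in 424 (3.26%) and 304 (2.33%). A fit blocked by replicate number gave 774 and 843. The counts depended on single libraries. For Space against BDF1 they were 319 without Space replicate 2, 282 without Space replicate 4, 231 without BDF1 replicate 4 and 238 without BDF1 replicate 5. For Ground against BDF1 they were 232 without Ground replicate 3, 188 without Ground replicate 6, and 321, 270, 145, 141 and 210 without BDF1 replicates 1, 2, 4, 5 and 6.

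The genes counted as higher in the high livers were called in these comparisons, beside 3.80% and 3.81% of all genes, in 11 of 286 (3.85%) for Space and 16 of 286 (5.59%) for Ground, and those counted as lower in 4 of 173 (2.31%) and 7 of 173 (4.05%). Both pup groups share the BDF1 controls. Among the named genes, Pnpla5 was higher than BDF1 in Space (log2 change 7.98 ± 1.96 SE, adjusted p = 0.0307, edgeR) and Ground (7.80 ± 1.97, adjusted p = 0.038, edgeR). Without the high livers its change in Space was 6.16 (adjusted p = 0.0428, edgeR) and in Ground 5.87 (adjusted p = 0.0659, edgeR). Adcy1 was called in Space at 4.32 ± 1.18 and in Ground at 4.36 ± 1.18, and without the high livers these became 2.64 (adjusted p = 0.0072, edgeR) and 1.42 (adjusted p = 0.135, edgeR). With the replicate number as a block neither Adcy1 call was kept (adjusted p = 0.0937 and 0.104, edgeR). Mki67 was called in both groups, at 4.58 ± 1.20 each. Without the high livers its change was 4.09 in Ground (adjusted p = 0.0566, edgeR) and 2.97 in Space (adjusted p = 0.135, edgeR). In the libraries numbered 1 to 3, pups included, Mki67 read 0.11 to 1.42 CPM and Pnpla5 0 to 1.81 CPM. Both genes were thus lower there than in any pup library numbered 4 to 6, whereas the tests pool all numbers. Scd1 was higher in Space by 2.77 ± 0.70 (adjusted p = 0.0359, edgeR). Without the high livers it was called in Space at 2.98 and in Ground at 2.69 (adjusted p = 0.00803 and 0.0209, edgeR). Within replicates 4 to 6 the change of Scd1 in Space was 1.35 (adjusted p = 0.416, edgeR), and with the block it was 2.83 (adjusted p = 0.0566, edgeR). Isg15 was lower in Ground, at −1.55 ± 0.42 (adjusted p = 0.0485, edgeR). Its change was −1.30 without the high livers (adjusted p = 0.126, edgeR), −1.77 within replicates 4 to 6 (adjusted p = 0.0841, edgeR) and −1.50 with the block (adjusted p = 0.0624, edgeR). A call lost in the smaller set does not show that the change itself was smaller. Each library left out had the Xist pattern of replicates 4 to 6, so the mix of patterns then differed between the groups. These fits had no term for it, and its part in these changes and counts was not tested.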

How the data were processed

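Liver RNA was sequenced by the authors as 18 stranded mRNA libraries, in paired-end mode per the series record, whereas the study's methods describe single reads. The submitters' processing notes name bcl2fastq 2.20, cutadapt 4.6, HISAT2 2.2.1, HTSeq 2.0.2 and mm10. The strand setting and the handling of ambiguous reads are not given in the sources used here. The file deposited by the authors holds unnormalised read counts for 32285 genes, of which 10671 had no count. Groups and replicate numbers came from the labels.

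Counts were scaled with TMM factors of edgeR 4.0.16 (R 4.3.3). Serpina6 shares used raw column totals. The labelled groups were compared with edgeR's quasi-likelihood test (filterByExpr, group alone, Benjamini-Hochberg). A permutation test of the Serpina6 shares had been planned but is not used, because these values chose the libraries. The fits and the counting rule were tested on simulated data. A library without counts for a gene allows up to 0.134 to 0.235 CPM (3 counts). Separate libraries are taken as separate animals. The study describes this for the pups, but it counts fewer wild-type mice than there are BDF1 libraries. Library pairs with the same number had deviations from the group means correlated at 0.231 to 0.654 (18 pairs). Pairs with different numbers were not summarised and the Xist pattern follows the number, so this does not show that equal numbers are pairs. The fit with the number as a block is given where it moves a count. The closest libraries of any group, Space replicates 1 and 2, differed with a chi-square of 10.5 for each gene, so none was counted as a duplicate.

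Named genes were the 4 marker genes, the 12 largest ratios in each direction without unnamed gene models, and the largest within each list, some of which are not reported here. The members, lists and tests were chosen with earlier results of these data known, and the interferon list after its own values were seen. Of 469 list genes 466 were in the file. Coordinates are mm10 with GENCODE M21, in which 32235 identifiers matched, and promoters are RefSeq on GRCm38.p6. Alternatives were total-count and DESeq2 1.42.0 scaling, the DESeq2 test, filters, pseudocounts, ratios, the block, subsets and leaving out each library.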

Additional observations from a re-analysis of the deposited data

Results flagged for a closer look

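Each gene and library measure was examined for a library far from the other 5 of its labelled group, taken as the gap to its nearest neighbour over the range of the group. Of 87 sets examined, 32 had such a library, where chance gives about 4.35. Many of the genes were named because they differ between the Serpina6 classes, and Space replicate 4 is the only Serpina6-high library of its group, so these values largely restate how the libraries were chosen.

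Space replicate 4 stood apart for its Serpina6 share (gap over range 0.981), Mki67 (0.821), Pnpla5 (0.888), Adcy1 (0.968), Serpina16 (1.0), Sult4a1 (0.993), Cacna1h (0.993), Crybb3 (0.983), Abca17 (0.976), Dnajc12 (0.982), Lifr (0.966), Peg3 (0.969), Snai3 (0.98), Cish (0.896) and, as the lowest, Ddah1 (0.74). Ground replicate 5 stood apart for Pnpla5 (0.681), Sult4a1 (0.748), Cacna1h (0.731), Crybb3 (0.663), Abca17 (0.645), Dnajc12 (0.848) and Snai3 (0.725), with Ground replicate 6 the next library. Ground replicate 4 was the highest Ground library for Prom2 (0.829), Sult2a5 (0.746), Ifi44 (0.638) and Fam81a (0.673).

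Space replicate 6 stood apart for the number of genes with counts (0.802), and Ground replicate 2 for its mitochondrial share (0.638). Among the controls, BDF1 replicate 3 stood apart for Sult4a1 (1.0), Dnajc12 (0.654) and Isg15 (0.668), and BDF1 replicate 6 for Abca17 (1.0). Sult4a1 and Abca17 were at or near 0 in these libraries.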

How the results depend on the processing

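The classes came from a measured value and each comparison rests on 3 or 6 libraries, so counts moved with the settings. Total-count scaling gave 170 higher and 388 lower genes in the Serpina6-high livers, a ratio of 1.5 gave 682 and 476, and a ratio of 4 gave 85 and 29. Leaving out 1 library gave 300 to 420 higher and 172 to 225 lower. The log2 ratios of named genes kept their sign under all settings run.

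For the labelled groups, DESeq2's Wald test called 30 genes in Space against Ground, 1030 in Space against BDF1 and 1087 in Ground against BDF1. Without the low-count filter the last 2 comparisons had 281 and 218 genes, and with the replicate block 774 and 843. In Ground against BDF1, total-count scaling gave 943 genes, replicates 4 to 6 alone 895, and the libraries without the Serpina6-high livers 304. Leaving out 1 library gave 0 to 6 genes in Space against Ground, 231 to 593 in Space against BDF1 and 141 to 667 in Ground against BDF1. The Serpina6 share difference ranged from −0.913 to 0.142 points, reversing without Ground replicate 5. With the block, Adcy1, Scd1 and Isg15 lost their calls, and Pnpla5 and Mki67 kept theirs. The causes were not tested. All calls of named genes against BDF1 were lost under at least 1 alternative. A gene at 0 counts in a library could still hold up to 0.134 to 0.235 CPM.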
